A study of Mus musculus with 14 samples.

Results

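The question was which colon genes answered dexamethasone (DEX, a synthetic glucocorticoid) only when the glucocorticoid receptor (GR) was present in the intestinal epithelium, and which answered alike without it. The quantity examined was the difference of responses, that is, the log2 change with DEX in GR iKO mice minus the log2 change with DEX in Flox mice. Flox mice carry a floxed GR gene, and GR iKO mice carry the same floxed alleles with cre driven by the villin promoter, so that cre acts in intestinal epithelial cells and other cells of the colon keep the receptor. All mice were C57BL/6 males on chow diet, 8 to 10 weeks old per the labels, and all had been adrenalectomized (ADX) 2 weeks earlier at 6 to 8 weeks, which removes the adrenal source of corticosterone. The study's methods give an older age at ADX. Mice received 1 mg/kg DEX or PBS and colons were taken 6 hours later. The 14 arrays were Flox_PBS (4 arrays, replicates 1 to 4), Flox_DEX (3 arrays, replicates 1, 2 and 4), GR iKO_PBS (3 arrays, replicates 2 to 4) and GR iKO_DEX (4 arrays, replicates 1 to 4), with groups taken from the sample titles, because the treatment text describes a DEX injection for every sample. Of the 41174 probes on the array, 28897 were tested, 19373 of them in the first 66.5% of the array's rows, called the first rows, and 9524 in the remaining 33.5%, called the last rows, and these parts were fitted and adjusted apart because the shares of called probes differed between them. A tested probe was well above background on every array of at least 1 group. Between 28284 and 30504 probes were well above background on each array. No slide held arrays of more than 1 group, and neither did any scan run, so in every comparison slide cannot be told apart from group.

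Glucocorticoids cross the cell membrane and bind GR, which moves to the nucleus, binds DNA at glucocorticoid response elements and raises or lowers transcription of nearby genes. In the colon the epithelium answers glucocorticoids with sodium and water absorption, and the receptor is also present in macrophages, lymphocytes, fibroblasts and smooth muscle, where it is best known for restraining inflammatory genes. RNA of whole colon holds the transcripts of all these cells, and in such bulk samples fewer cells of a type and less RNA per cell cannot be told apart. The 7 epithelium markers tested were well above background on every array, and their mean log2 intensity lay between 16.00 and 16.34 on all 14 arrays, so the tissue read as epithelium-rich colon in every group. *Nr3c1*, the gene of GR, read 10.70 to 10.91 in Flox_PBS, 10.53 to 10.75 in Flox_DEX, 9.68 to 10.21 in GR iKO_PBS and 9.27 to 9.44 in GR iKO_DEX. Every GR iKO array lay below every Flox array, and the difference of the DEX responses of *Nr3c1* was −0.34 (95% interval −0.70 to 0.02, limma adjusted p = 0.271). Markers of exocrine pancreas stood apart on 6 arrays: the mean log2 intensity of 9 such genes was 9.69 and 15.24 in Flox_PBS replicates 3 and 2, 16.93 and 17.03 in Flox_DEX replicates 1 and 2, and 13.96 and 13.07 in GR iKO_DEX replicates 2 and 4, against 6.49 to 7.39 on the other arrays.

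Genes were sorted by 2 estimates that are uncorrelated in this design, the average of the DEX responses in both genotypes and the difference between them. Their tests use the same estimate of spread for each probe. An average effect was called at an adjusted p under 0.05 and a size of at least 0.5 log2 units, and a difference at an adjusted p under 0.05 and at least 2-fold. A gene with a called average effect was put among the epithelial-GR dependent genes if the difference was called against the direction of the average, among the larger responses in GR iKO if it was called with that direction, and among the independent genes if both genotypes passed an adjusted p of 0.05 in the same direction and the whole 95% interval of the difference lay within −1 to 1. The rest stayed unresolved. These names describe the test and nothing beyond it.

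In the first rows the average effect was called for 1932 probes (9.97% of those tested), of which 768 were higher and 1164 lower with DEX. That balance depended on the scaling: it was 1165 higher and 803 lower with each array scaled to its 75th percentile, 386 and 183 after normexp background correction, and 933 and 980 with quantile normalization within each part of the rows. The difference of responses was called for 23 probes (0.119%), 10 (0.0516%) with a higher and 13 (0.0671%) with a lower response in GR iKO, and 2453 probes (12.7%) had an unadjusted p under 0.05. Of the 1932 probes, 9 were dependent (8 named genes), 309 were independent (246 named genes), 4 were larger in GR iKO, and 1610 (83.3%) stayed unresolved. A further 10 probes had a called difference without a called average, since the changes in the genotypes had opposite signs or were small in sum. With the mean of the exocrine pancreas markers as a covariate, 13 differences were called and 3 probes were dependent. The count of 23 rested on particular arrays: it was 2 without Flox_DEX replicate 1 and 53 without Flox_DEX replicate 4. Taken alone, the Flox response was called for 463 probes (2.39%), 272 of them lower (1.4%), and the GR iKO response for 509 (2.63%), 369 of them lower (1.9%), and the median of all probes was 0.00 in Flox, −0.05 in GR iKO and −0.04 for the difference. The split of the GR iKO response, 140 higher to 369 lower, was 258 to 196 with 75th-percentile scaling, 28 to 6 after normexp and 210 to 242 with quantile normalization within parts. Normexp moved the median of all probes to 0.27 in Flox, 0.07 in GR iKO and −0.22 for the difference. The median interval of the difference was 1.57 log2 units wide among unresolved and 1.01 among independent probes, a width that the rule of the independent class itself limits. Independent probes higher with DEX had median changes of 0.78 in Flox and 0.73 in GR iKO, and those lower −0.91 and −0.84. These are smaller in size than the limit of 1, so the class allows a large part of a typical response to be lost in GR iKO. Most responders could be placed in neither class at this number of arrays.

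**Figure D1:**
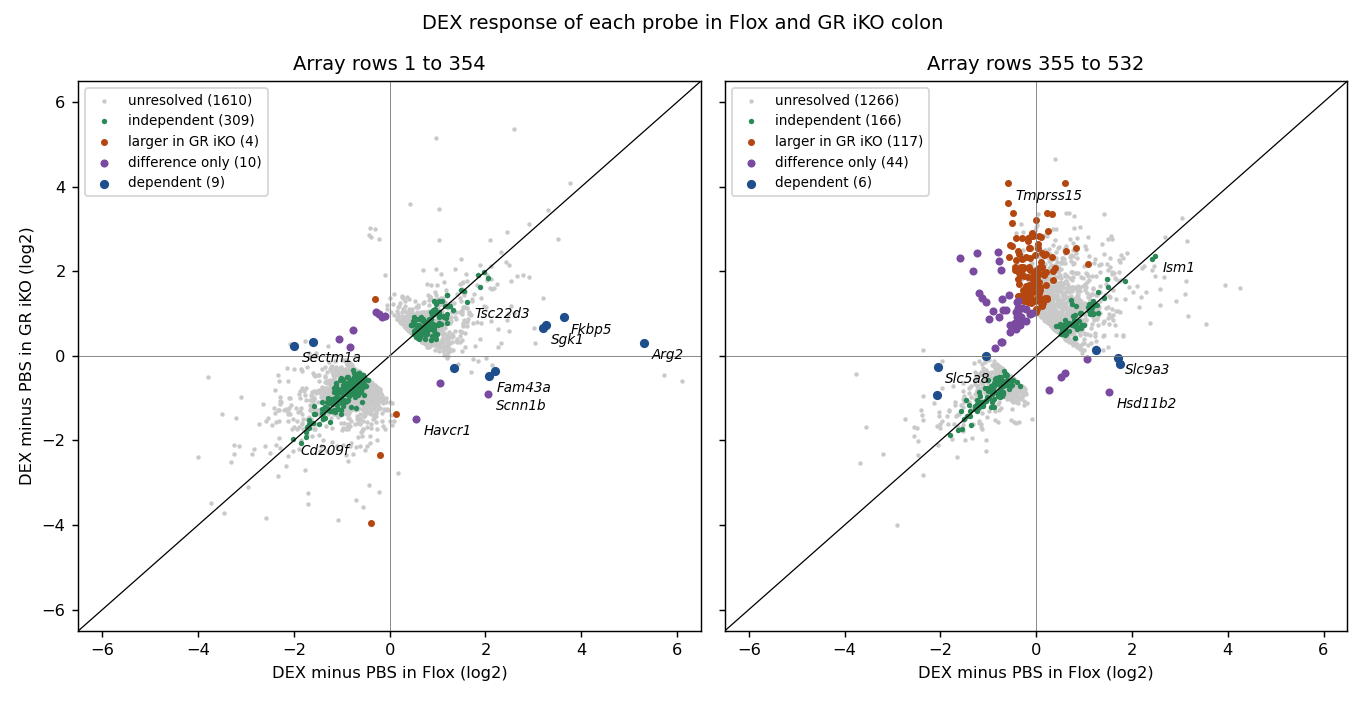
Log2 change with DEX in Flox (horizontal) and GR iKO colon (vertical) for each probe with a called average effect or a called difference, colored by class, with the line of equal responses. The first rows are on the left and the last rows on the right, and other tested probes are not drawn. Independent probes lie along the line of equal responses, whereas *Arg2*, *Fkbp5* and *Sgk1* lie far to the right of it, with Flox changes of 5.32, 3.63 and 3.21 and GR iKO changes of 0.31, 0.91 and 0.67.

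The largest called difference in the first rows was that of *Arg2*, which encodes the mitochondrial arginase that splits arginine into ornithine and urea. *Arg2* read 5.78, 4.39, 4.50 and 5.48 in Flox_PBS, 11.13, 9.95 and 9.98 in Flox_DEX, 7.49, 4.85 and 5.74 in GR iKO_PBS, and 6.20, 6.45, 6.49 and 6.21 in GR iKO_DEX. All 3 Flox_DEX arrays lay far above the other 11, and the GR iKO groups overlapped, with GR iKO_PBS replicate 2 above every GR iKO_DEX array. *Arg2* rose by 5.32 in Flox (adjusted p = 0.000352), its change in GR iKO was 0.31 (adjusted p = 0.713), and the difference was −5.00 (SE 0.76, 95% interval −6.66 to −3.35, adjusted p = 0.0274). The call was kept in 5 of 14 fits that left out an array (those without Flox_DEX replicate 4, Flox_PBS replicate 1, GR iKO_DEX replicate 4, or GR iKO_PBS replicate 2 or 3) and lost in the other 9, where the adjusted p was 0.0521 to 0.104 and the difference −5.21 to −4.61. Of 12 other settings of the analysis 8 kept it, and without a filter, without moderation, with the replicate block or with the pancreas covariate the adjusted p was 0.0512 to 0.0771. An adjusted p under 0.1 and no fold minimum are among the 12 and only loosen the rule, so no call can be lost under them. Among 12 tested genes of arginine and polyamine metabolism, *Arg2* was the sole called difference.

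*Prodh* and *Acy1* belong to amino acid breakdown as well, *Prodh* encoding the proline dehydrogenase that starts proline oxidation and *Acy1* the aminoacylase that frees amino acids from their acetylated forms. *Prodh* read 10.43, 10.23, 10.14 and 10.38 in Flox_PBS, 11.79, 11.74 and 11.37 in Flox_DEX, 10.88, 10.58 and 10.25 in GR iKO_PBS, and 10.10, 10.44, 10.30 and 10.33 in GR iKO_DEX. Flox_DEX stood above the other groups, which overlapped each other. *Prodh* rose by 1.34 in Flox (adjusted p = 0.000814) and the difference was −1.62 (SE 0.22, interval −2.08 to −1.15, adjusted p = 0.0203). *Acy1* read 9.86, 9.31, 9.80 and 9.60 in Flox_PBS, 10.81, 10.82 and 10.46 in Flox_DEX, 9.58, 9.78 and 9.86 in GR iKO_PBS, and 9.41, 9.09, 9.02 and 8.93 in GR iKO_DEX. Here the groups moved in opposite directions, with no overlap between PBS and DEX in either genotype. *Acy1* rose by 1.06 in Flox (adjusted p = 0.00282), its GR iKO change was −0.63 (adjusted p = 0.0239), below the 2-fold minimum, and the difference was −1.69 (interval −2.16 to −1.21, adjusted p = 0.0183). Both calls were lost without Flox_DEX replicate 1 (adjusted p = 0.0779 for each) and without Flox_DEX replicate 2 (0.0588 for *Prodh* and 0.0582 for *Acy1*), and that of *Prodh* also without Flox_PBS replicate 2 (0.0576) and under normexp (0.0535).

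The dependent genes included classic glucocorticoid targets, *Fkbp5*, an immunophilin that binds the GR chaperone complex and lowers the receptor's affinity for hormone, and *Sgk1*, a kinase that keeps epithelial sodium channels at the cell surface. *Fkbp5* read 8.88, 7.94, 7.51 and 8.76 in Flox_PBS, 12.12, 11.93 and 11.64 in Flox_DEX, 9.34, 8.59 and 8.54 in GR iKO_PBS, and 9.42, 10.21, 9.65 and 9.68 in GR iKO_DEX. Flox_DEX lay highest, and each GR iKO_DEX array was also above every PBS array of either genotype. The rise in Flox was 3.63 (adjusted p = 0.000191), the GR iKO change was 0.91 (adjusted p = 0.0783), and the difference was −2.71 (SE 0.46, interval −3.71 to −1.72, adjusted p = 0.0446). Its second probe in the first rows gave −2.52 (adjusted p = 0.0451) and another probe, in the last rows, gave −1.64 (adjusted p = 0.143). *Sgk1* read 13.10, 11.56, 11.92 and 12.25 in Flox_PBS, 15.69, 15.19 and 15.37 in Flox_DEX, 11.93, 12.39 and 12.31 in GR iKO_PBS, and 12.79, 13.14, 13.16 and 12.43 in GR iKO_DEX. Its 3 Flox_DEX arrays lay above all others, and GR iKO_DEX lay just above GR iKO_PBS without overlap. *Sgk1* rose by 3.21 in Flox (adjusted p = 0.000282), its GR iKO change was 0.67 (adjusted p = 0.154), and the difference was −2.54 (SE 0.43, interval −3.48 to −1.60, adjusted p = 0.0451). Leaving out any array but Flox_PBS replicate 1 took *Sgk1* past the threshold (adjusted p 0.054 to 0.161, difference −2.68 to −2.32), and *Fkbp5* kept its call only without Flox_DEX replicate 4, Flox_PBS replicate 1 or GR iKO_DEX replicate 2 (otherwise 0.056 to 0.158, with differences of −2.87 to −2.45). Both calls were also lost under 6 of 12 other settings, 75th-percentile scaling among them (0.0574 for *Fkbp5* and 0.0584 for *Sgk1*), with adjusted p up to 0.106 and 0.196.

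**Figure D2:**
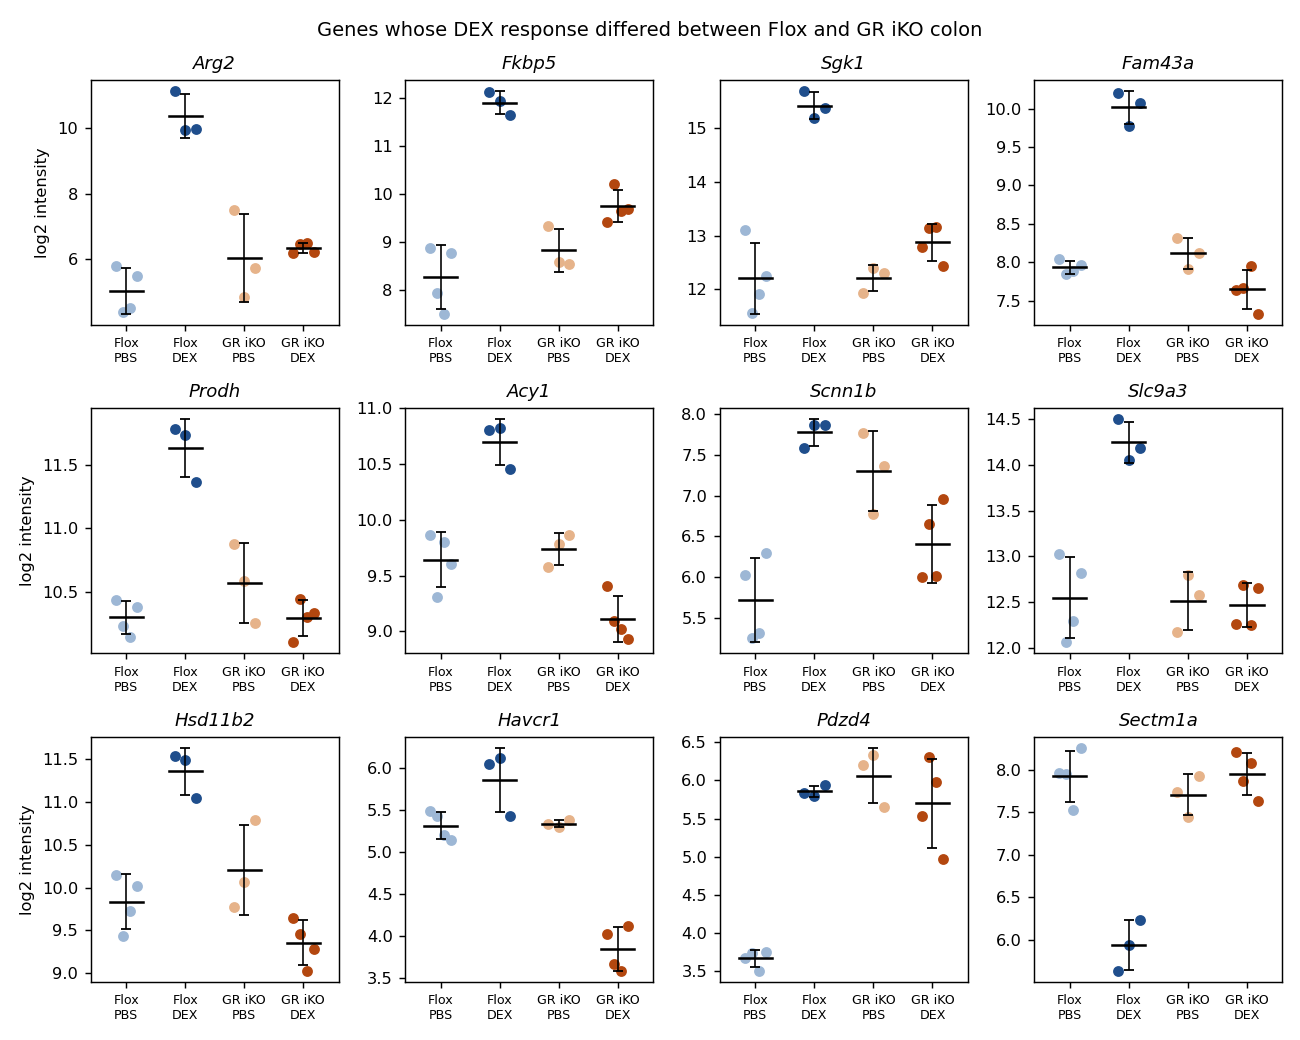
Log2 intensity on each array (points) in the 4 groups for genes with a called difference of responses, with the group mean (bar) and SD (whiskers). For *Arg2*, *Fkbp5* and *Sgk1* the 3 Flox_DEX arrays lie above all 11 others, whereas for *Scnn1b* and *Pdzd4* GR iKO_PBS is already high.

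The promoter of *Sgk1* held the only full glucocorticoid response element found among genes with a negative called difference, leaving out the class of larger responses in GR iKO. The palindromic pattern GNACANNNTGTNC was looked for in the 250 bases before each RefSeq start of assembly GRCm38.p6, where it occurred in 127 of 32851 promoters (0.387%), and it reads the same on both strands. The sequence around it is shown with the element in capitals, on the + strand at chr10:21993694-21993722, its first base 188 bases before 1 of the starts listed for the gene.
Sgk1: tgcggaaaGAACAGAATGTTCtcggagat
Of 9 named genes with such a difference in the first rows, 8 had a promoter in the table. *Sgk1* was the only 1 of them with the full element and the only 1 with the half-site AGAACA on either strand. The half-site is carried by 18.2% of all genes. A match is a description of these letters and no measure of binding.

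A further difference was that of *Scnn1b*, which encodes the beta subunit of the epithelial sodium channel. *Scnn1b* read 6.03, 5.25, 5.31 and 6.29 in Flox_PBS, 7.59, 7.87 and 7.87 in Flox_DEX, 7.77, 6.78 and 7.36 in GR iKO_PBS, and 6.00, 6.65, 6.01 and 6.96 in GR iKO_DEX. Flox_PBS lay below Flox_DEX without overlap, but GR iKO_PBS was already above Flox_PBS, and the GR iKO groups overlapped. The rise in Flox was 2.06 (adjusted p = 0.00382), the change in GR iKO was −0.90 (adjusted p = 0.0775), and the difference was −2.95 (SE 0.45, interval −3.93 to −1.98, adjusted p = 0.0274). The call was kept in 6 of 14 fits without 1 array (Flox_DEX replicate 4, Flox_PBS replicates 1 and 4, GR iKO_DEX replicates 2 and 4, GR iKO_PBS replicate 3) and lost in the others, with adjusted p up to 0.0908 and differences of −3.05 to −2.72. It was also lost under normexp (−2.0, adjusted p = 0.0781), without a filter, without moderation and with the pancreas covariate (0.0512 to 0.0756).

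*Slc9a3* and *Hsd11b2* were read in the last rows, where the difference was called for 167 probes (1.75%), 8 of them (0.084%) with a lower response in GR iKO. Quantile normalization within each part of the rows gave 161 called probes there, 45 of them lower. *Slc9a3*, the apical sodium-proton exchanger NHE3 that absorbs sodium without the channel, read 13.02, 12.06, 12.29 and 12.82 in Flox_PBS, 14.50, 14.06 and 14.19 in Flox_DEX, 12.17, 12.79 and 12.58 in GR iKO_PBS, and 12.26, 12.69, 12.25 and 12.65 in GR iKO_DEX. Only Flox_DEX stood apart. *Slc9a3* rose by 1.70 in Flox (adjusted p = 0.00291), its GR iKO change was −0.05 (adjusted p = 0.876), and the difference was −1.76 (SE 0.33, interval −2.47 to −1.04, adjusted p = 0.0277). That call was lost without GR iKO_DEX replicate 1 (0.0664) or 3 (0.0559), under normexp (0.359) and without moderation (0.0523), and the gene's other probe, in the first rows, gave −2.10 with an adjusted p of 0.0526. *Hsd11b2* encodes the enzyme that inactivates endogenous glucocorticoids in aldosterone-responsive epithelium. It read 10.15, 9.43, 9.73 and 10.02 in Flox_PBS, 11.54, 11.49 and 11.04 in Flox_DEX, 9.77, 10.06 and 10.79 in GR iKO_PBS, and 9.65, 9.46, 9.03 and 9.28 in GR iKO_DEX. In Flox the DEX arrays were higher and in GR iKO they were lower, without overlap in either. *Hsd11b2* rose by 1.52 in Flox (adjusted p = 0.00554), its GR iKO change was −0.85 (adjusted p = 0.0238), and the difference of −2.37 (SE 0.35, interval −3.14 to −1.61, adjusted p = 0.0111) stayed called in all 14 fits without 1 array and was lost under normexp (0.0578).

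Of 27 tested genes of epithelial ion and water transport, *Scnn1b* and *Slc9a3* were the only called differences, and the average effect was called for 5 (3 higher and 2 lower), against 9.97% of all probes in the first rows and 16.3% in the last rows. Their median change was −0.00 in Flox and 0.01 in GR iKO, like that of all probes. The median of their differences was −0.25, beside −0.04 and 0.01 over all probes of the first and last rows. Under normexp it was −0.22, beside −0.22 and −0.10. *Cftr*, the apical chloride channel, and *Slc12a2*, the basolateral sodium-potassium-chloride cotransporter that feeds it, were the independent members. *Cftr* had changes of 0.76 and 0.58 (adjusted p = 0.0193 and 0.0398, difference −0.18, interval −0.69 to 0.33) and *Slc12a2* by 0.78 and 0.58 (adjusted p = 0.00498 and 0.0164, difference −0.20, interval −0.60 to 0.19) in Flox and GR iKO. *Scnn1g*, the gamma subunit of the sodium channel, had Flox values between 3.83 and 8.07 and no call in either genotype. Markers of distal colon varied with the groups too, their mean per array lying between 12.58 and 12.95 in Flox_PBS, 11.43 and 12.33 in Flox_DEX, 8.61 and 12.83 in GR iKO_PBS, and 9.62 and 12.50 in GR iKO_DEX. The part of colon position in the transport results was not tested.

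The difference of *Fam43a* was called in every fit run. *Fam43a* read 8.04, 7.85, 7.89 and 7.97 in Flox_PBS, 10.20, 9.78 and 10.07 in Flox_DEX, 8.32, 7.91 and 8.12 in GR iKO_PBS, and 7.64, 7.66, 7.95 and 7.33 in GR iKO_DEX. Flox_DEX lay more than 1 log2 unit above every other array. It rose by 2.08 in Flox (adjusted p = 0.000101), its GR iKO change was −0.47 (adjusted p = 0.052), and the difference was −2.55 (SE 0.21, interval −3.01 to −2.10, adjusted p = 0.000553), the lowest adjusted p in the first rows. The call stood in 14 of 14 fits without 1 array and under 12 of 12 other settings, the looser thresholds, which cannot end a call, among them.

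*Pdzd4* and *Havcr1* reached their differences by other routes. *Pdzd4* read 3.67, 3.74, 3.51 and 3.76 in Flox_PBS, 5.83, 5.80 and 5.94 in Flox_DEX, 6.20, 6.34 and 5.65 in GR iKO_PBS, and 5.54, 6.31, 5.98 and 4.97 in GR iKO_DEX, so Flox_PBS alone was low and GR iKO was high whether or not DEX was given. Its rise in Flox was 2.19 (adjusted p = 0.000843) and the difference −2.55 (SE 0.36, interval −3.34 to −1.76, adjusted p = 0.0218), a call kept in 7 of 14 fits without 1 array and lost without Flox_DEX replicates 1 or 2, Flox_PBS replicates 2, 3 or 4, GR iKO_DEX replicate 1 or GR iKO_PBS replicate 2 (0.0549 to 0.0843, differences −2.58 to −2.48). *Havcr1*, a receptor for phosphatidylserine on dying cells, read 5.49, 5.43, 5.21 and 5.15 in Flox_PBS, 6.05, 6.12 and 5.43 in Flox_DEX, 5.34, 5.30 and 5.39 in GR iKO_PBS, and 4.03, 3.67, 3.59 and 4.12 in GR iKO_DEX. Here GR iKO_DEX alone was low. Only 2 of 4 GR iKO_DEX arrays had *Havcr1* well above background, and only 2 of 4 Flox_PBS arrays had *Pdzd4* so. Both differences thus rest on a group near background. *Havcr1* fell by 1.49 in GR iKO (adjusted p = 0.00138), its Flox change was 0.55 (adjusted p = 0.0848), and the difference was −2.04 (interval −2.58 to −1.50, adjusted p = 0.0155), lost without Flox_DEX replicate 1 (0.0646). Under normexp the differences of *Havcr1* and *Pdzd4* were −0.99 and −1.21, neither called (adjusted p = 0.719 for each), and that of *Pdzd4* was also lost without moderation (0.0707).

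Several further rises in Flox were smaller in GR iKO, and apart from *Slc6a6* these were singled out after their values were seen. *Slc6a6*, the taurine transporter, rose by 1.11 in Flox (adjusted p = 0.000101), and its GR iKO change was 0.31 (adjusted p = 0.0363). The difference was −0.80 (interval −1.06 to −0.53, adjusted p = 0.0274), under 2-fold, while its second probe, in the last rows, gave a called difference of −1.14 (adjusted p = 0.00408). *Dio3*, which inactivates thyroid hormone, read 5.91, 5.30, 6.40 and 5.27 in Flox_PBS, 7.74, 6.94 and 7.75 in Flox_DEX, 6.09, 6.29 and 6.14 in GR iKO_PBS, and 6.46, 5.57, 6.39 and 5.50 in GR iKO_DEX. Flox_DEX lay above every other array, and the other groups overlapped. *Dio3* rose by 1.76 in Flox (adjusted p = 0.0101), with a difference of −1.95 (interval −2.95 to −0.95, adjusted p = 0.0468). *Hpgd*, the enzyme that inactivates prostaglandins, read 13.24, 12.64, 12.99 and 12.87 in Flox_PBS, 14.17, 14.09 and 14.29 in Flox_DEX, 12.88 to 13.66 in GR iKO_PBS and 13.21 to 13.48 in GR iKO_DEX. *Hpgd* rose by 1.25 in Flox (adjusted p = 0.00388), with a difference of −1.10 (interval −1.66 to −0.53, adjusted p = 0.0468). Among the 14 fits without 1 array, *Dio3* kept its call only without Flox_DEX replicate 2 or Flox_PBS replicate 3, and *Hpgd* only without Flox_PBS replicate 1 or GR iKO_PBS replicate 3 or 4, with adjusted p up to 0.0915 and 0.0972 in the others. Of 12 other settings *Dio3* kept it in 8 and *Hpgd* in 6, and under normexp the differences were −1.13 (0.721) and −0.86 (0.91). *Gldc*, the glycine decarboxylase of the glycine cleavage system, lay just outside the threshold, with a rise of 2.26 in Flox (adjusted p = 0.000843), a GR iKO change of 0.22 (adjusted p = 0.582) and a difference of −2.04 (adjusted p = 0.0595).

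Dependent probes in the first rows were 7 higher and 2 lower with DEX (0.362% and 0.104% of those with a called average). In the last rows they were 3 higher and 3 lower (0.193% each). *Sectm1a*, which encodes a small membrane and secreted protein, read 7.96, 7.95, 7.53 and 8.26 in Flox_PBS, 5.64, 5.94 and 6.23 in Flox_DEX, 7.74, 7.45 and 7.93 in GR iKO_PBS, and 8.21, 7.87, 8.08 and 7.64 in GR iKO_DEX. All Flox_DEX arrays lay below all others, and the other 3 groups overlapped. *Sectm1a* fell by 1.99 in Flox (adjusted p = 0.000349), its GR iKO change was 0.24 (adjusted p = 0.413), and the difference was 2.23 (SE 0.28, interval 1.63 to 2.83, adjusted p = 0.0155), lost without Flox_DEX replicate 1 (0.0646) or 2 (0.0507) and under normexp, where it was 0.93 (0.719). *4930581F22Rik* read 8.53, 9.03, 9.37 and 9.42 in Flox_PBS, 7.28, 7.69 and 7.49 in Flox_DEX, and 8.48 to 9.33 in the GR iKO groups. It fell by 1.60 in Flox (adjusted p = 0.00199), with a difference of 1.94 (interval 1.27 to 2.61, adjusted p = 0.0331), a call kept without Flox_DEX replicate 4, Flox_PBS replicate 1, GR iKO_DEX replicates 2 or 4 or GR iKO_PBS replicate 3 and lost without any other array (adjusted p up to 0.118). Of 12 other settings 8 kept it, and normexp gave 1.30 (0.462).

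In the last rows the same pattern was called for 3 probes, those of *Slc5a8*, *Sp100* and *Ccl24*, which were chosen after their values were seen. *Slc5a8*, the sodium-coupled transporter of butyrate and other short-chain fatty acids in colonocytes, read 13.83, 14.02, 14.08 and 13.83 in Flox_PBS, 11.65, 11.85 and 12.18 in Flox_DEX, 12.80, 14.11 and 14.01 in GR iKO_PBS, and 13.59, 13.10, 13.50 and 13.31 in GR iKO_DEX. Flox_DEX lay lowest without overlap, and the GR iKO groups overlapped, with GR iKO_PBS replicate 2 the lowest of them. The fall in Flox was significant (−2.05, adjusted p = 0.00264), the GR iKO change was −0.26 (adjusted p = 0.469), and the difference was 1.78 (interval 0.97 to 2.59, adjusted p = 0.0342). *Sp100*, a nuclear body protein induced by interferon, fell by 1.05 in Flox (adjusted p = 0.00469) and had a GR iKO change of −0.00 (adjusted p = 0.992), with a difference of 1.04 (interval 0.55 to 1.54, adjusted p = 0.037). The calls of *Slc5a8* and *Sp100* were kept in 5 and 4 of 14 fits without 1 array (both without GR iKO_PBS replicates 2 or 3, *Slc5a8* also without Flox_DEX replicate 4, Flox_PBS replicate 2 or GR iKO_PBS replicate 4, *Sp100* also without Flox_DEX replicate 2 or Flox_PBS replicate 1), with adjusted p up to 0.0758 and 0.0708 in the others. Of 12 other settings 7 and 8 kept them, and normexp gave 1.93 (0.253) and 0.61 (0.91). For *Ccl24*, an eosinophil-attracting chemokine, the probe in the last rows had changes of −2.07 in Flox and −0.93 in GR iKO (difference 1.14, adjusted p = 0.0428), whereas the brighter probe in the first rows had changes of −1.87 and −1.30 (difference 0.57, adjusted p = 0.417), so the probes disagree on the class of this gene.

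Glucocorticoid-induced genes known from many tissues fell into different classes. Of 27 tested, each by its brightest probe, the Flox response was called higher for 10 (0.986% and 0.976% of all probes in the first and last rows) and the GR iKO response for 5 (0.723% and 9.13% of all probes), and none was called lower. The average was called higher for 14, against 3.96% of all probes in the first rows and 11.3% in the last rows. The list's median change was 0.87 in Flox and 0.52 in GR iKO, beside medians of 0.00 and −0.05 over all probes in the first rows. Of the 14, *Fkbp5* and *Sgk1* were dependent, *Tsc22d3*, *Errfi1* and *Cd163* were independent, and 9 were unresolved. Since the list was drawn up with earlier results known, its counts are a description.

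*Tsc22d3*, known as GILZ, is a glucocorticoid-induced leucine zipper protein that restrains NF-kB. *Tsc22d3* read 11.10, 11.07, 10.62 and 11.06 in Flox_PBS, 13.08, 12.85 and 12.65 in Flox_DEX, 10.45, 10.96 and 10.61 in GR iKO_PBS, and 12.49, 12.25, 12.43 and 11.99 in GR iKO_DEX. The DEX arrays of both genotypes lay above all PBS arrays. *Tsc22d3* rose by 1.89 in Flox (adjusted p = 0.000191) and 1.62 in GR iKO (adjusted p = 0.000633), with a difference of −0.28 (SE 0.24, interval −0.80 to 0.24), and all 3 of its probes were independent. *Klf15*, a transcription factor of amino acid and lipid metabolism, read 7.40 to 7.82 in Flox_PBS, 9.16 to 9.83 in Flox_DEX, 6.98 to 7.42 in GR iKO_PBS and 8.65 to 9.54 in GR iKO_DEX. It rose by 1.85 and 1.91 (adjusted p = 0.000843 and 0.000983, difference 0.07, interval −0.59 to 0.72), while a second probe had changes of 0.44 and 0.42 and was in no class. *Cd163*, the hemoglobin scavenger receptor of macrophages, had a Flox change of 0.96 (adjusted p = 0.0315) and rose by 1.22 in GR iKO (adjusted p = 0.0103), with a difference of 0.25 (interval −0.47 to 0.98). *Errfi1*, an inhibitor of the EGF receptor, had changes of 0.72 and 0.71 (adjusted p = 0.0241 and 0.0199, difference −0.01, interval −0.52 to 0.49).

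Other rises of like size in both genotypes were those of *Hspb7*, a small heat shock protein of muscle, *Arl4d*, a small GTPase, *Lao1*, an amino acid oxidase, and, in the last rows, *Ism1*, a secreted protein, *Car14*, a membrane-bound carbonic anhydrase, and *Scube2*, which helps release hedgehog proteins. *Hspb7* rose by 1.56 and 1.53 and *Arl4d* by 1.49 and 1.57 in Flox and GR iKO, with differences of −0.03 (interval −0.70 to 0.65) and 0.08 (interval −0.38 to 0.54). *Ism1* read 6.17, 5.55, 5.69 and 6.02 in Flox_PBS, 8.45, 7.96 and 8.62 in Flox_DEX, 6.02, 5.59 and 5.86 in GR iKO_PBS, and 7.77, 8.35, 8.25 and 8.36 in GR iKO_DEX. The PBS groups overlapped, the DEX groups overlapped, and the DEX arrays stood above the PBS arrays in both genotypes. *Ism1* rose by 2.49 and 2.36 (adjusted p = 0.000262 and 0.000109), with a difference of −0.13 (interval −0.76 to 0.50). *Car14* rose by 2.42 and 2.30 (adjusted p = 0.000829 and 0.00037), with a difference of −0.12 (interval −0.91 to 0.67), from 6.28 to 7.41 in the PBS arrays of both genotypes to 8.92 to 9.60 in the DEX arrays. *Scube2* rose by 1.85 and 1.76 (difference −0.09, interval −0.91 to 0.72), and *Lao1* by 1.96 and 1.99 (difference 0.03, interval −0.88 to 0.95). The class of *Lao1* was lost in all 14 fits without 1 array, that of *Scube2* was kept in 7 and that of *Car14* in 8.

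The full response element was also found in the promoters of *Car14* and *Stx17* (a syntaxin of autophagosome fusion, named because its promoter held the element), which are independent genes with higher expression under DEX. They are shown with the element in capitals, on the − strand at chr3:95904890-95904918 for *Car14*, 225 bases before the start, and on the + strand at chr4:48124707-48124735 for *Stx17*, 204 bases before the start.
Car14: gggaatgaGAACACGGTGTCCtgggaggg
Stx17: aattcaagGAACACAATGTGCaggaaaac
Among independent genes with a promoter in the table, the element was in 1 of 59 higher and 0 of 131 lower genes of the first rows, and in 1 of 34 higher and 0 of 72 lower genes of the last rows. The half-site was in 12 of 59 (20.3%) and 24 of 131 (18.3%) in the first rows, close to the 18.2% of all genes.

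**Figure D3:**
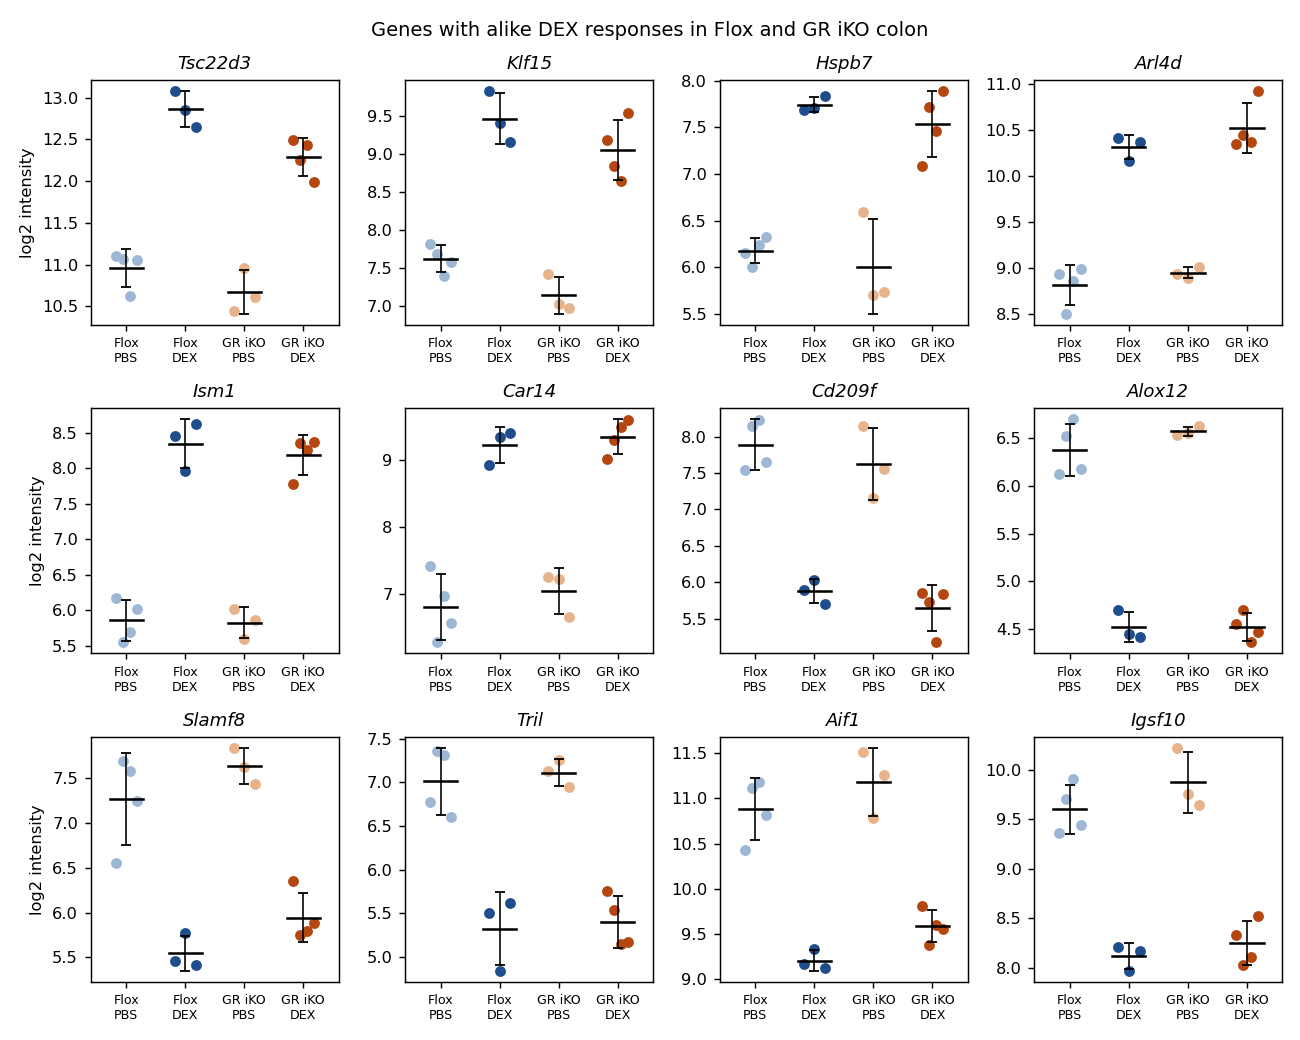
Log2 intensity on each array (points) for 12 independent genes in the 4 groups, with the group mean (bar) and SD (whiskers). In each panel the DEX arrays of both genotypes lie on the same side of the PBS arrays, for example *Tsc22d3* at 11.99 to 13.08 with DEX and 10.45 to 11.10 with PBS.

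The independent probes were 190 lower and 119 higher in the first rows and 106 lower and 60 higher in the last rows, a balance that depended on the scaling. With 75th-percentile scaling they were 118 lower and 179 higher, and 78 lower and 72 higher, and under normexp 6 lower and 17 higher, and 3 lower and 6 higher. The named genes with the largest falls included several that are known from macrophages and other myeloid cells. *Cd209f*, a C-type lectin, read 7.54, 8.14, 8.23 and 7.65 in Flox_PBS, 5.90, 6.03 and 5.70 in Flox_DEX, 8.14, 7.16 and 7.56 in GR iKO_PBS, and 5.85, 5.73, 5.18 and 5.84 in GR iKO_DEX. Its DEX arrays lay more than 1 log2 unit below its PBS arrays in both genotypes. *Cd209f* fell by 2.01 in Flox (adjusted p = 0.00106) and 1.97 in GR iKO (adjusted p = 0.00154), with a difference of 0.04 (interval −0.71 to 0.80). *Aif1*, the calcium-binding protein IBA1 of macrophages, read 10.43, 11.12, 11.18 and 10.82 in Flox_PBS, 9.16, 9.33 and 9.12 in Flox_DEX, 11.52, 10.78 and 11.26 in GR iKO_PBS, and 9.81, 9.38, 9.60 and 9.55 in GR iKO_DEX. *Aif1* fell by 1.69 and 1.61 (adjusted p = 0.000843 and 0.00154), with a difference of 0.08 (interval −0.53 to 0.69). *Slamf8*, a receptor of activated myeloid cells, fell by 1.72 and 1.69 (difference 0.02, interval −0.72 to 0.77), and *Tril*, an accessory protein of Toll-like receptors, by 1.69 and 1.71 (difference −0.02, interval −0.75 to 0.71). Under normexp the average effects of *Cd209f*, *Slamf8* and *Tril* shrank to −0.88, −0.57 and −0.48 and were not called (adjusted p = 0.0623, 0.182 and 0.226). *Aif1* stayed independent in 12 of 12 other settings.

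*P2ry13*, a purinergic receptor, fell by 1.61 and 1.59, *Slc15a3*, a lysosomal peptide and histidine transporter, by 1.68 and 1.51, and *Pf4*, a chemokine of platelets and macrophages, by 1.57 and 1.37 in Flox and GR iKO. The intervals of these differences reached 0.86, 0.99 and 0.98, close to the limit of 1, and the class was kept in 8, 4 and 4 of 14 fits without 1 array. *Alox12*, the lipoxygenase that makes 12-HETE, fell by 1.86 and 2.06 (difference −0.20, interval −0.62 to 0.23), though its second probe, with a difference of 1.31, was unresolved. Outside the immune genes, *Igsf10*, an extracellular immunoglobulin-domain protein, fell by 1.48 and 1.62 (difference −0.14, interval −0.67 to 0.38), *Wnt4*, a Wnt ligand, by 1.74 and 1.79 (difference −0.06, interval −0.98 to 0.87), and *Frem2*, an extracellular matrix protein of the last rows, by 1.63 and 1.76 (difference −0.13, interval −0.95 to 0.69). *Wnt4* kept its class in 1 of 14 fits without 1 array and in 8 of 12 other settings, and *Frem2* in 5 and 8. *Itgax*, *Tyrobp* and *Lcp2*, genes of dendritic cells and leukocyte signaling chosen after their values were seen, were independent too, with falls of 1.39, 1.31 and 1.42 in Flox and 1.27, 1.08 and 1.35 in GR iKO. Under normexp the average effects of *P2ry13*, *Slc15a3* and *Alox12* were −0.18, −0.21 and −0.33. Those of *Wnt4*, *Frem2* and *Lcp2* were −0.48, −0.55 and −0.27. None of these was called (adjusted p 0.135 to 0.632), whereas *Igsf10* stayed independent in 12 of 12 other settings.

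Some markers of immune cells were lower with DEX as well. The mean log2 intensity of 8 macrophage markers, all well above background on every array, lay between 9.50 and 10.49 in Flox_PBS, 9.09 and 9.62 in Flox_DEX, 9.68 and 10.34 in GR iKO_PBS, and 9.36 and 9.77 in GR iKO_DEX. The average was called lower for 5 of the 8, against 6.01% of all probes in the first rows and 5.01% in the last rows, and no difference between genotypes was called. Taken alone, neither the Flox nor the GR iKO response was called for any of them. The median change of these markers was −0.69 in Flox and −0.61 in GR iKO. Most genes above were chosen for the size of their falls, so their falls cannot be set against this median. The average was called lower for 4 of 7 T cell markers and higher for 1, and lower for 4 of 8 B and plasma cell markers, with median changes of −0.61 and −0.79 in Flox and −0.90 and −1.45 in GR iKO. Under normexp no T, B or plasma cell marker was called, and the T cell median in Flox was 0.36. Of 4 mast cell markers the average was called lower for 1, with medians of −0.60 in Flox and −0.25 in GR iKO. Of 4 neutrophil and eosinophil markers it was called lower for 2 and higher for 1, with medians of −0.70 and 0.02. The part of cell numbers in the falls was not tested.

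About as many chemokines were called lower in Flox as in GR iKO. Of 22 tested, the Flox response was called lower for 11 (1.4% and 1.29% of all probes in the first and last rows) and the GR iKO response for 10 (1.9% and 1.27%), the average was called lower for 15 (6.01% and 5.01%) and higher for 1, and no difference was called. Under normexp these counts of lower members were 2, 1 and 4. The median change was −1.14 in Flox and −0.92 in GR iKO. *Cxcl10*, an interferon-induced attractant of T cells, read 6.95, 8.58, 9.55 and 7.82 in Flox_PBS, 4.81, 5.06 and 4.42 in Flox_DEX, 8.06, 8.47 and 7.75 in GR iKO_PBS, and 5.52, 4.48, 3.56 and 3.94 in GR iKO_DEX. No DEX array reached a PBS array, but the PBS arrays of Flox ranged widely. *Cxcl10* fell by 3.46 and 3.72 (adjusted p = 0.00447 and 0.0034), and the interval of its difference, −1.95 to 1.43, was too wide to place it. *Ccl7*, an attractant of monocytes, fell by 3.67 and 2.53 (difference 1.14, interval 0.16 to 2.11, adjusted p = 0.169), and *Cxcl9*, with changes of −2.47 and −2.34, fell as well (difference 0.13, interval −1.57 to 1.83). *Ccl21a*, the lymph vessel chemokine that guides dendritic cells, was the only independent member, with falls of 1.56 and 1.37. The number of chemokines with a called average ranged from 5 to 18 over the settings tried.

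Most genes of antigen presentation on MHC class II fell in both genotypes. Of 9 tested, 7 were called lower in Flox (1.4% and 1.29% of all probes in the first and last rows) and 7 in GR iKO (1.9% and 1.27%), the average was called lower for 8 (6.01% and 5.01%), and no difference was called. Under normexp these counts were 1, 0 and 6. The median change was −1.57 in Flox and −1.35 in GR iKO. *H2-Ab1*, a chain of the class II molecule, fell by 1.49 and 1.35 (adjusted p = 0.0211 and 0.0242), *Cd74*, the invariant chain, by 1.57 and 1.17 (adjusted p = 0.0308 and 0.0335), and *Ciita*, the master regulator of these genes, by 1.83 and 1.30 (adjusted p = 0.0338 and 0.0438). *H2-Eb1* was the independent member (difference −0.04, interval −0.93 to 0.86), and the others were unresolved or had no called average.

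For interferon-response genes the list medians lay apart, but no difference of responses was called. Of 26 tested, 11 were called lower in Flox (1.4% and 1.29% of all probes in the first and last rows) and 4 in GR iKO (1.9% and 1.27%), and the average was called lower for 13 (6.01% and 5.01%), which under normexp became 5, 1 and 8. The median change was −1.03 in Flox and −0.22 in GR iKO, and the median difference was 0.60, beside −0.04 and 0.01 over all probes of the respective row parts. *Cd274*, the checkpoint ligand PD-L1, read 7.84, 8.65, 8.13 and 8.03 in Flox_PBS, 6.21, 6.17 and 6.53 in Flox_DEX, 7.48, 7.63 and 7.62 in GR iKO_PBS, and 7.45, 7.67, 7.19 and 6.77 in GR iKO_DEX. Flox_DEX lay below every other array, and the GR iKO groups overlapped. *Cd274* fell by 1.86 in Flox (adjusted p = 0.000843) and had a GR iKO change of −0.30 (adjusted p = 0.348), with a difference of 1.56 (interval 0.90 to 2.22, adjusted p = 0.0786). *Iigp1*, a GTPase of cell-autonomous immunity, fell by 3.20 in Flox (adjusted p = 0.00371), had a GR iKO change of −1.46 (adjusted p = 0.0662) and a difference of 1.74 (interval 0.23 to 3.25, adjusted p = 0.332), from Flox_PBS values that ran from 9.94 to 12.79. *Gbp2*, a guanylate-binding protein, fell in both, by 1.91 and 1.33 (difference 0.57, interval −0.14 to 1.29).

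**Figure D4:**
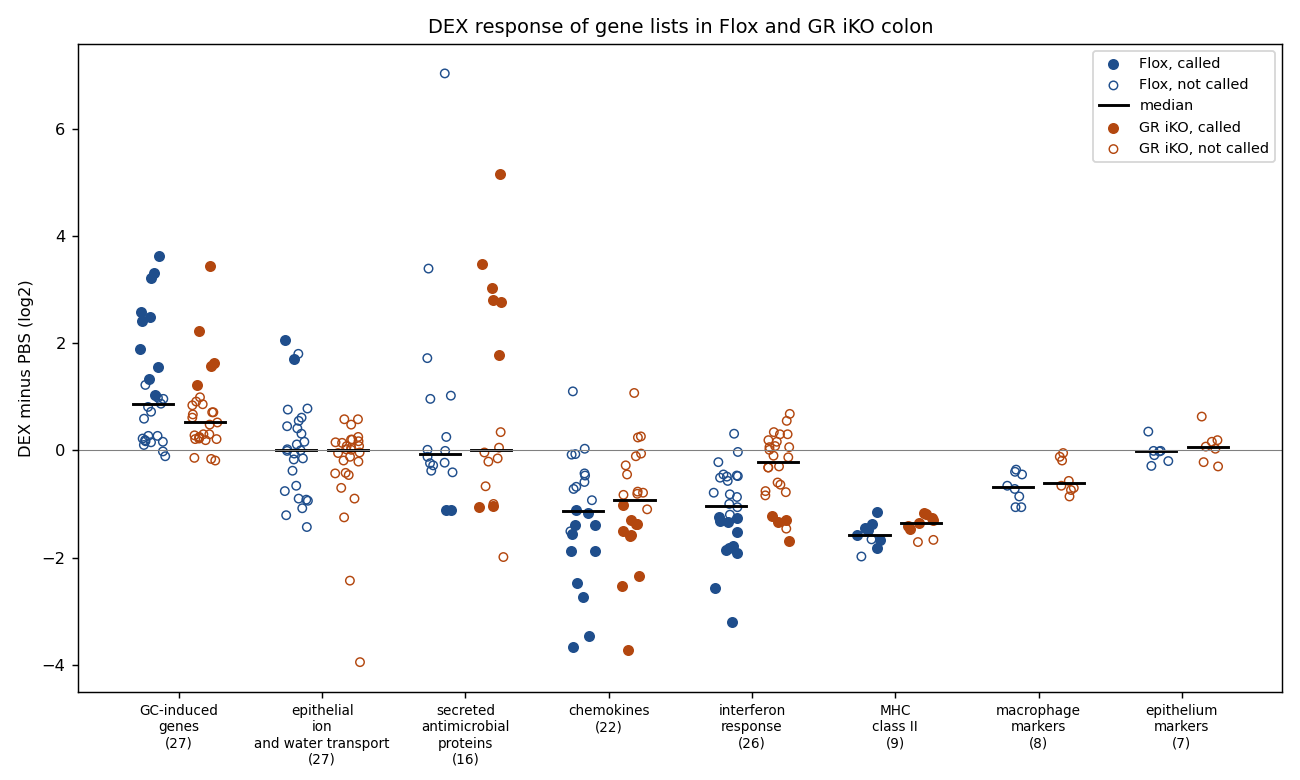
Log2 change with DEX of every tested member of 8 gene lists in Flox (blue) and GR iKO (orange), filled where called, with the list median as a bar and the number of tested genes in parentheses. Chemokine and MHC class II medians are below 0 in both genotypes (−1.14 and −0.92, −1.57 and −1.35), while the interferon median is −1.03 in Flox and −0.22 in GR iKO.

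Some large responses could not be placed. *Pdk4*, the kinase that turns off pyruvate dehydrogenase, rose by 3.30 and 3.44 (adjusted p = 0.000349 and 0.000401), and its interval of −0.86 to 1.15 passed the limit of 1 only slightly. *Fam107a*, an actin-binding stress-induced protein, rose by 2.42 and 2.23 (interval −1.14 to 0.77). *Mt2*, a metallothionein that binds zinc, read 14.08, 13.05, 13.26 and 13.85 in Flox_PBS, 16.20, 15.97 and 15.95 in Flox_DEX, 14.23, 14.43 and 14.68 in GR iKO_PBS, and 15.36, 15.31, 15.10 and 15.99 in GR iKO_DEX. DEX arrays lay above PBS arrays in both genotypes, with GR iKO_PBS above Flox_PBS. *Mt2* rose by 2.48 in Flox (adjusted p = 0.000352), its GR iKO change was 0.99 (adjusted p = 0.0277), and the difference of −1.49 (interval −2.27 to −0.71) had an adjusted p of 0.15. *Slc10a2*, the apical bile acid transporter, read 7.28, 4.55, 5.62 and 5.24 in Flox_PBS, 12.06, 10.73 and 11.37 in Flox_DEX, 11.57, 5.94 and 6.43 in GR iKO_PBS, and 6.81, 8.57, 7.80 and 6.89 in GR iKO_DEX. The single GR iKO_PBS replicate 2 was as high as Flox_DEX. *Slc10a2* rose by 5.72 in Flox (adjusted p = 0.0123), and the difference was −6.18 with an interval of −9.63 to −2.73 (adjusted p = 0.164).

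*Lct*, lactase, rose by 3.77 and 4.09 (difference 0.32, interval −1.22 to 1.86). The pancreatic lipase relative *Pnliprp2* rose by 5.36 in GR iKO (adjusted p = 0.0124), had a Flox change of 2.60 (adjusted p = 0.18), and an interval of −0.65 to 6.15. The carbamoyl phosphate synthetase *Cps1* had changes of −3.73 and −3.48 (adjusted p = 0.0733 and 0.0621), and the B cell adaptor *Bank1* had a fitted Flox change of −2.90 (adjusted p = 0.0746) and fell by 4.00 in GR iKO (adjusted p = 0.00703). No Flox_DEX array had *Bank1* well above background, so its Flox_PBS level was at least 3.79-fold that of Flox_DEX. *Bank1* passed the filter only through the PBS groups, where it was high, so its falls are a description only. *Xcl1*, a chemokine of lymphocytes, fell by 2.74 and 1.5 (difference 1.25, interval −0.18 to 2.67, adjusted p = 0.31). *Klk1b27*, a kallikrein protease, was at least 9.39-fold higher in Flox_DEX than in Flox_PBS (adjusted p = 0.0381), as no Flox_PBS array had it well above background. The difference of its responses was −2.65 (interval −5.97 to 0.66, adjusted p = 0.356). The fold bound uses the mean of 3 Flox_DEX arrays that spread widely (6.75, SD 2.77). *Klk1b27* passed the filter through Flox_DEX alone, the group where it was high, so its bound and p are a description only.

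Some secreted antimicrobial proteins rose with DEX in GR iKO. Of 16 tested, 6 were called higher in GR iKO, against 0.723% of all probes in the first rows and 9.13% in the last rows, and 2 lower, none was called higher and 2 lower in Flox, and no difference was called. The 8 goblet cell markers, *Retnlb* of which is in both lists, were all well above background on every array, and their mean log2 intensity lay between 16.20 and 16.82 in Flox_PBS, 16.73 and 16.92 in Flox_DEX, 15.93 and 16.39 in GR iKO_PBS, and 16.74 and 16.93 in GR iKO_DEX, so the GR iKO groups did not overlap. Of these markers 1 was called higher in GR iKO and none in Flox, and their part in the antimicrobial result was not tested. *Ang4*, an angiogenin of goblet and Paneth cells, read 15.15, 17.33, 16.67 and 16.98 in Flox_PBS, 16.11, 16.20 and 16.14 in Flox_DEX, 13.65, 15.59 and 13.60 in GR iKO_PBS, and 16.98, 16.68, 17.38 and 17.30 in GR iKO_DEX. *Itln1*, a lectin that binds microbial sugars, read 8.96, 12.60, 10.44 and 11.75 in Flox_PBS, 12.12, 11.70 and 11.88 in Flox_DEX, 8.76, 9.39 and 7.02 in GR iKO_PBS, and 13.02, 13.68, 13.70 and 13.80 in GR iKO_DEX. For both, GR iKO_DEX was far above GR iKO_PBS, and the 4 Flox_PBS arrays spread over more than 2 log2 units. The rise in GR iKO was 2.81 for *Ang4*, 3.02 for its relative *Ang2* and 5.16 for *Itln1* (adjusted p = 0.00917, 0.00596 and 0.00294). Their differences were 3.19 (interval 1.58 to 4.79, adjusted p = 0.131), 3.43 (interval 1.88 to 4.98, adjusted p = 0.0899) and 4.20 (interval 1.97 to 6.44, adjusted p = 0.156). Leaving out Flox_PBS replicate 1 brought the differences of *Ang2*, *Ang4* and *Itln1* to 3.86, 3.65 and 4.86 (adjusted p = 0.0273, 0.0354 and 0.0391), and leaving out GR iKO_PBS replicate 3 brought those of *Ang2* and *Ang4* to 4.04 and 3.85 (adjusted p = 0.0423 and 0.0469). *Lyz1* and *Lyz2*, the lysozymes of Paneth and myeloid cells, were the independent members, with falls of 1.12 and 1.11 in Flox and 1.03 and 1.06 in GR iKO. They are near-identical copies, and their probes may not tell them apart.

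Called positive differences in the first rows arose in different ways. *Syn1*, a synaptic vesicle protein of neurons, read 13.97, 13.90, 13.73 and 13.94 in Flox_PBS, 13.92, 13.74 and 13.74 in Flox_DEX, 13.35, 13.11 and 13.29 in GR iKO_PBS, and 14.19, 14.27, 14.09 and 14.19 in GR iKO_DEX. GR iKO_PBS was lowest and GR iKO_DEX highest, with both Flox groups between them, and *9530080O11Rik* and *Rusc1* also had their lowest values in GR iKO_PBS. The GR iKO change was 0.94 (adjusted p = 0.000401) and the difference 1.02 (interval 0.75 to 1.30, adjusted p = 0.0155), while its other probe gave −0.52 and was not called. *Cdk5r2*, an activator of a neuronal kinase, rose by 1.04 in GR iKO (adjusted p = 0.0016), with a Flox change of −0.28 and a difference of 1.32 (adjusted p = 0.0218). *Rusc1* and *9530080O11Rik* had differences of 1.22 and 1.10 (adjusted p = 0.0274 and 0.0225), and the other probe of *Rusc1* gave 0.13. For *Rab33a*, a small GTPase of vesicle transport, a fall in Flox made the difference, with changes of −1.05 and 0.39 (difference 1.43, adjusted p = 0.0274). *Agpat4*, an acyltransferase of phospholipid synthesis, had changes of −0.83 and 0.22 (difference 1.05, adjusted p = 0.031), and a second probe in the last rows gave a called difference of 1.03. Without 1 array, *Syn1* kept its call in 9 of 14 fits, *Cdk5r2* in 8, *9530080O11Rik* in 7, *Rusc1* in 6 and *Rab33a* and *Agpat4* in 5 each (adjusted p up to 0.104). Leaving out Flox_DEX replicate 2 ended all 6 calls, leaving out Flox_DEX replicate 1, Flox_PBS replicate 2 or Flox_PBS replicate 4 ended those of all but *Syn1*, leaving out Flox_PBS replicate 3 those of all but *Syn1* and *Cdk5r2*, and leaving out GR iKO_DEX replicate 1 those of all but *Syn1* and *9530080O11Rik*. Under normexp *Rusc1*, *9530080O11Rik*, *Rab33a* and *Agpat4* were not called (0.226 to 0.576).

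In the last rows most called differences pointed this way, though the split depended on the scaling. The average effect was called for 1555 probes (16.3%), the Flox response for 216 (2.27%) and the GR iKO response for 991 (10.4%), of which 870 were higher (9.13%). An unadjusted p of the difference under 0.05 was found for 1970 probes (20.7%). The difference was called higher for 159 probes (1.67%) and lower for 8. Quantile normalization within each part of the rows gave 116 higher and 45 lower, and 552 higher and 261 lower GR iKO responses. As reported, 117 probes were larger in GR iKO, all with higher values under DEX, a median Flox change of −0.06 and a median GR iKO change of 1.94. In 39 of the 117, at least 1 group was not well above background on any array. The classes held 6 dependent probes, 166 independent ones (141 named genes) and 1266 unresolved ones (81.4%). The share of probes with a called higher difference rose along the last rows, split into 4 bins, from 0.321% through 1.24% and 2.36% to 2.92%, while in 6 bins of the first rows it was 0 to 0.123%. The GR iKO response was called higher for 0.433% to 1.17% of probes in bins of the first rows and for 6.14% to 10.7% in bins of the last rows. In Flox these shares were 0.434% to 1.89% and 0.602% to 1.33%. The part of array row in these differences was not tested.

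**Figure D5:**
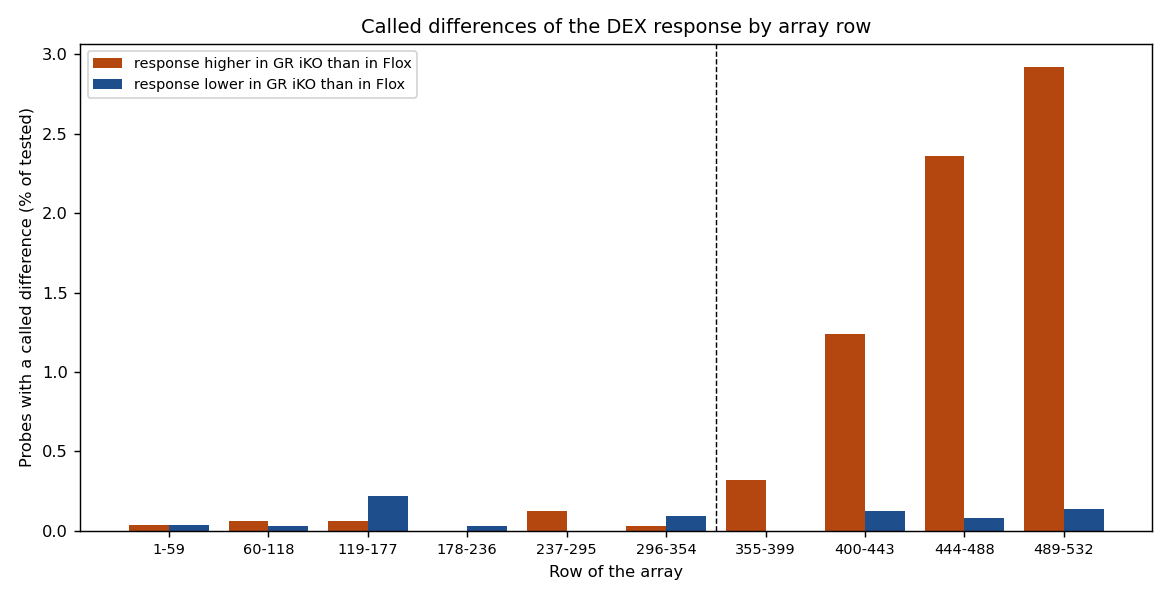
Percent of tested probes with a called difference of responses, higher or lower in GR iKO, in 10 bins of array rows. The share of higher differences stays at or below 0.123% in the first rows, left of the dashed line, and climbs to 2.92% at the last bin, whereas that of lower differences stays between 0 and 0.216% throughout.

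The genes with the smallest p among these were low in GR iKO_PBS. *3930402G23Rik* read 9.82, 9.42, 9.42 and 9.56 in Flox_PBS, 9.61, 9.29 and 9.28 in Flox_DEX, 8.54, 7.68 and 8.15 in GR iKO_PBS, and 10.10, 9.82, 9.96 and 10.05 in GR iKO_DEX. The 3 GR iKO_PBS arrays lay below all others, and the Flox groups overlapped. It rose by 1.86 in GR iKO (adjusted p = 0.000189), with a difference of 2.02 (interval 1.47 to 2.57, adjusted p = 0.00427). *Synpo*, an actin-associated protein, had a difference of 1.77 (adjusted p = 0.00427) that its other probe, at −0.02, did not share, and *Hapln3*, a hyaluronan link protein, had 1.35 (adjusted p = 0.00371). *Tmprss15*, enteropeptidase, and *Pga5*, a pepsinogen, were not well above background on any GR iKO_PBS array. In the deposited scaling they were at least 8.41-fold and 5.95-fold higher in GR iKO_DEX than in GR iKO_PBS. Their fitted differences of 4.66 and 3.22 (adjusted p = 0.00687 and 0.00506) rest on those dim values. Under normexp the differences were 1.15 and 0.62, neither called (adjusted p = 0.91 for each), and the fold bounds were not computed for that scaling. *Abcb11*, the bile salt export pump, read 6.34 to 7.16 in Flox_PBS, 6.34 to 6.64 in Flox_DEX, 6.01, 4.47 and 5.42 in GR iKO_PBS, and 7.33 to 7.52 in GR iKO_DEX, and its difference of 2.53 (adjusted p = 0.0159) was the only called one among 12 tested genes of bile acid transport and sensing. *Trmt61a*, a tRNA methyltransferase, had a difference the other way, with changes of 0.26 and −0.81 (difference −1.08, adjusted p = 0.0114).

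The lists of the circadian clock (19 genes tested), cell cycle (19), fatty acid oxidation and fuel switching (19), immediate early and heat shock genes (14), cytokines (11), lymphocyte apoptosis (13) and metallothioneins and zinc transporters (11) held no called difference. Their average effect was called for 7, 4, 5, 5, 8, 2 and 4 members, against 9.97% of all probes in the first rows and 16.3% in the last rows. Of 11 tested genes of the receptor, its chaperones and ligand metabolism, *Hsd11b2* alone had a called difference. Apart from *Fkbp5*, *Sgk1*, *Scnn1b*, *Slc9a3*, *Arg2*, *Hsd11b2* and *Abcb11*, no member of the 16 gene lists passed the test of the difference, and no marker of the 18 cell type lists did, each gene being read by its brightest probe.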

How the data were processed

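Per the labels, total RNA of mouse colon was hybridized to 1-color Agilent arrays, 1 array per sample, and groups were taken from the sample titles. The authors deposited scanner files of spot intensity, background-subtracted by Agilent Feature Extraction 12.0.0.7, and a table of log2 values of the same arrays, for which the submitters' processing notes name Partek 6.6. Its normalization is not given in the sources used here. Rank by rank its columns differed by no more than 0.0024, and each followed its own array (lowest r = 0.9994), so it was taken as quantile normalized. The table's column median was 6.29. The number of arrays limits the precision.

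Probe flags for signal well above background came from the scanner files. Of the 41174 probes, 28223 were named through RefSeq (GRCm38.p6), 761 through gene columns of the study's supplement, and 12190 stayed unnamed. The supplement's own comparison columns (fold changes and p-values) were not used. The 241 probes with spots in both row parts were tested in neither. A linear model with 4 groups was fitted by limma 3.58.1 (lmFit, eBayes; R 4.3.3) to each row part, with Benjamini-Hochberg adjustment, and its adjusted p is the one printed throughout. It recovered known changes in simulated data with independent normal errors, which held no effect of slide, array row or pancreas. A gene is represented by its probe with the highest mean signal. Tables and plots were made with Python 3.11.15, pandas 2.3.3 and matplotlib 3.10.9. Where no array of a group had a probe well above background, its change is given as a lower bound that holds for the deposited scaling only. In that group the dim probe was taken on each array at its own value or at the dimmest well-above-background probe, whichever was higher. The mean was set against the brighter group's.

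Named genes were, by the smallest p of the difference, 10 in each direction in the first rows and 5 in the last rows, the 15 and 5 independent genes with the largest average effect, the 5 such unresolved genes, members of 34 gene lists, and 13 genes among them *Nr3c1* and those the study showed. Members, lists, rules and thresholds were chosen with earlier results of these data known, and genes outside the rule were chosen after their values were seen. Where nothing says that samples of a group came from separate experiments, p-values measure the spread between these samples. The alternatives were another scaling, normexp, other filters, the row parts fitted together, no moderation, array weights, a replicate block, a pancreas covariate, other thresholds, and each array left out in turn. Of these, an adjusted p under 0.1 and no fold minimum only loosen the rule. A call cannot be lost under them, yet they count among the other settings of each gene.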

Additional observations from a re-analysis of the deposited data

Results flagged for a closer look

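The test of the difference itself was passed by 23 probes in the first rows and 167 in the last rows. Negative differences among the genes named here, each by its brightest probe, were those of *Arg2* (−5.00), *Scnn1b* (−2.95), *Fkbp5* (−2.71), *Fam43a* (−2.55), *Pdzd4* (−2.55), *Sgk1* (−2.54), *Hsd11b2* (−2.37), *6530409C15Rik* (−2.15), *Havcr1* (−2.04), *Slc9a3* (−1.76), *Acy1* (−1.69), *Prodh* (−1.62), *Dio3* (−1.95), *Hpgd* (−1.10) and *Trmt61a* (−1.08), in log2 units. *6530409C15Rik* was well above background in GR iKO_PBS alone, where it was at least 1.8-fold higher than in GR iKO_DEX. It passed the filter only through that group, so the difference of *6530409C15Rik* is a description only. Positive differences were those of *Tmprss15* (4.66), *Pga5* (3.22), *Abcb11* (2.53), *Sectm1a* (2.23), *3930402G23Rik* (2.02), *4930581F22Rik* (1.94), *Slc5a8* (1.78), *Synpo* (1.77), *Sp100* (1.04), *Rab33a* (1.43), *Hapln3* (1.35), *Cdk5r2* (1.32), *Rusc1* (1.22), *9530080O11Rik* (1.10), *Agpat4* (1.05) and *Syn1* (1.02).

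A lone array stood apart from the others of its group in 6 of 130 groups of 4 arrays examined, where chance gives about 6.5, or 1 in 20. *Tsc22d3* read 10.62 in Flox_PBS replicate 3 against 11.06 to 11.10 on the other Flox_PBS arrays. *Arl4d* read 10.92 in GR iKO_DEX replicate 4 against 10.34 to 10.44, *Itln1* read 13.02 in GR iKO_DEX replicate 1 against 13.68 to 13.80, *Trmt61a* read 8.53 in GR iKO_DEX replicate 1 against 8.45 to 8.46, and *Tmprss15* read 6.27 in GR iKO_DEX replicate 2 against 7.0 to 7.04. *6530409C15Rik* read 2.10 in Flox_PBS replicate 4 against 1.39 to 1.43, all below background.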

How the results depend on the processing

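Named differences of responses kept their direction and side of the threshold in 415 recomputed values under other settings, 90 lost and 4 gained the call, and *Xcl1* turned to −0.57 (adjusted p = 0.91) under normexp. Named average effects kept their call in 336 such values and lost it in 14. Both totals count the settings that only loosen the thresholds, where a call cannot be lost. Called probes of the difference in the first and last rows numbered 5 and 5 under normexp, 37 and 52 in a joint fit of all rows, 15 and 106 without a filter, 7 and 40 without moderation, 49 and 269 with array weights, and 57 and 393 at an adjusted p under 0.1. They numbered 13 in the first rows with the pancreas covariate, and in the last rows they numbered 319 with 75th-percentile scaling, 108 with probes above background on all 14 arrays and 67 with the replicate block. Dependent probes numbered 2 and 0 under normexp, 4 and 1 without a filter, 3 and 0 without moderation, 23 and 11 at the looser adjusted p, and 14 and 17 without a fold minimum, 16 with array weights and 3 with the covariate in the first rows, and 1 in the joint fit and 2 with the block in the last rows. Independent probes numbered 23 and 9 under normexp, 198 and 109 without moderation, 487 and 316 with array weights, 197 and 108 with the replicate block, and 497 and 267 at the looser adjusted p. The average effect was called for 569 and 533 probes under normexp, 4526 and 3160 without a fold minimum, and 1012 in the last rows with probes above background on all 14. The Flox response was called for 98 and 23 under normexp, 763 and 387 with array weights, 1246 and 587 without a fold minimum, and 136 in the last rows without moderation. The GR iKO response was called for 34 and 80 under normexp, 334 and 451 with probes above background on all 14, and 2597 and 2831 without a fold minimum. The cause of these shifts was not tested.

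Leaving out 1 array at a time gave 2 to 53 called differences in the first rows (lowest without Flox_DEX replicate 1, highest without Flox_DEX replicate 4) and 30 to 272 in the last rows (without GR iKO_DEX replicate 1 and GR iKO_PBS replicate 3), 1 to 30 and 0 to 13 dependent probes, 121 to 420 and 64 to 252 independent probes, 1582 to 2359 and 1300 to 1776 average effects, 240 to 576 and 89 to 277 Flox responses, and 336 to 792 and 826 to 1060 GR iKO responses. Same-numbered arrays did not deviate together (18 pairs, r from −0.21 to 0.32, median 0.03), so the numbers were not taken to pair samples. With the replicate block the counts not given above moved by less than 1.5 times, with 22 called differences and 7 dependent probes in the first rows. Of these, 15 and 5 were among the 23 and 9 called as reported. Among named genes 61 values stayed on their side of the threshold and 10 lost the call, those of *Arg2*, *Sgk1* and *Fkbp5* included (adjusted p = 0.0564, 0.0648 and 0.0811).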
